A study of Homo sapiens with 15 samples.

Results

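The gelsolin family is represented here by 7 human genes, GSN, CAPG, SVIL, FLII, VIL1, AVIL and SCIN, whose products share the gelsolin fold and bind actin filaments. The related villin-like gene VILL is not among them and stands with the other actin turnover genes. The members were taken by symbol from a table of 18858 genes measured in MDA-MB-231 cells, a human line derived from a triple-negative breast adenocarcinoma. 6 of the 7 members had a row, and VIL1 was not analysed here. RNA-seq was performed on 15 libraries, 3 in each of 5 groups: Control (untransfected), siControl (non-targeting control siRNA), siYAP (an siRNA pool against YAP1), siTAZ (a pool against WWTR1, which encodes TAZ) and siYAP+TAZ (the pools against both). All cells came from this single line and are labelled wild type. Knockdown lasted 48 h, after which the cells were kept on gelatin-coated plates for 5 to 6 h before RNA was collected. The siYAP+TAZ cells received both pools, so an effect of transfecting more than a single targeting pool cannot be told apart from that of the double knockdown. The question was whether the change in GSN after knockdown was shared by its family.

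Gelsolin-type proteins act on the length and number of actin filaments. Gelsolin (GSN), which calcium activates and phosphoinositides inhibit, severs filaments and caps the fast-growing barbed end. CAPG caps barbed ends without severing, SVIL (supervillin) binds actin and myosin II at the membrane and localizes to podosomes and invadopodia, and FLII (flightless I) joins gelsolin-like repeats to a leucine-rich repeat region and also acts as a nuclear coregulator. VIL1 (villin) bundles filaments in microvilli, AVIL (advillin) is known from sensory neurons and tuft cells, and SCIN (scinderin, also called adseverin) is a severing protein of secretory cells. YAP and TAZ are transcriptional coactivators of the Hippo pathway that reach DNA mainly through TEAD factors. Invadopodia, the actin-rich protrusions with which invasive cells degrade matrix, turn over their actin rapidly.

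Total counts lay between 18696737 and 30107312 per library. The mesenchymal and basal markers VIM, CD44, EGFR and AXL had at least 7858 counts in every library, and PTPRC, a leukocyte marker, had at most 6. Among luminal and epithelial markers PGR had at most 7 counts, whereas GATA3 had 379 to 697 and EPCAM 209 to 389. Relative to the siControl mean, YAP1 RNA stood at 23.4%, 64.0% and 17.6% in the siYAP libraries 18, 23 and 28, and at 51.8%, 51.0% and 41.5% in the siYAP+TAZ libraries 20, 25 and 30. WWTR1 RNA stood at 45.8%, 14.1% and 28.8% in the siTAZ libraries 19, 24 and 29, and at 62.7%, 62.1% and 71.0% in the siYAP+TAZ libraries. By edgeR's quasi-likelihood test with Benjamini-Hochberg adjustment, WWTR1 passed in siTAZ (adjusted p = 0.019). YAP1 in siYAP (adjusted p = 0.099) and YAP1 and WWTR1 in siYAP+TAZ (adjusted p = 0.072 and 0.20) did not pass. No knockdown library reached the siControl range of its target. For WWTR1, nor did Control 16, Control 21 and siYAP 23, at 81.6%, 86.1% and 78.7%, which did not receive its pool. The siYAP+TAZ libraries were lower still.

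The promoter windows of the 3 members that the comparison turns on are shown because YAP and TAZ act at DNA through TEAD. Each window runs from 250 bases before to 50 bases after a transcription start annotated by RefSeq (GRCh38.p14), read 5′ to 3′ on the strand of the gene, and the start shown is the one of the MANE Select transcript. Capitals mark a match to the TEAD core motif GGAATG in FLII and to the CArG box, the sequence bound by serum response factor, in SVIL. The GSN window holds neither.
GSN, chr9:121267912-121268211, plus strand: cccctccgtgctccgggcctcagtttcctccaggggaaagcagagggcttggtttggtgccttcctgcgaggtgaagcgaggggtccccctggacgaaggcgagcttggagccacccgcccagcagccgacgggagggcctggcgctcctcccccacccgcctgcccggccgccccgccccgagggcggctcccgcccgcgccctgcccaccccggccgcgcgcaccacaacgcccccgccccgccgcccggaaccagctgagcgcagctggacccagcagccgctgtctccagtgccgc
SVIL, chr10:29634922-29635221, minus strand: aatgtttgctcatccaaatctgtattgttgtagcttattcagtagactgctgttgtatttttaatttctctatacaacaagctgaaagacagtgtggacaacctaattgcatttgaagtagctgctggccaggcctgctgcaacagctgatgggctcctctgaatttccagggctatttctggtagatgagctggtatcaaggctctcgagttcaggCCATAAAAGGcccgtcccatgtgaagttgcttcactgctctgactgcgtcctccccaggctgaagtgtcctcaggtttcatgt
FLII, chr17:18258689-18258988, minus strand: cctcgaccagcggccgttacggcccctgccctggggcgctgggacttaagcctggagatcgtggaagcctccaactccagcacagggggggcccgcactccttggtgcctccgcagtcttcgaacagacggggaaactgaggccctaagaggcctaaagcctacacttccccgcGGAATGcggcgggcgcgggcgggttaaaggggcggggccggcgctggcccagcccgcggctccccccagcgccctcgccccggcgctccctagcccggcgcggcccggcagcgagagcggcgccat

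All 6 measured members matched the RefSeq promoter set, with 17 windows in all, and both strands were searched. GGAATG was found in 1 window, that of FLII, at position -76 from the start, and in none of the 6 windows of GSN. Over the whole set, 11.8% of 17100 windows held these letters. The CArG box was found at position -33 of the SVIL window shown, and 1.18% of all windows held a match. The AP-1 motif TGANTCA was found in 1 of the 4 CAPG windows and, as a single site, in 2 overlapping windows of SVIL, against 5.63% of all windows. No matches of different motifs overlapped. The matches describe the letters of these windows, and binding was not measured. Read counts per gene do not tell apart the starts of a gene.

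Co-knockdown of YAP and TAZ raised GSN about 3-fold, raised SVIL and CAPG by less, and lowered FLII. At an adjusted p of at most 0.05, 3 of the 6 measured members were higher and 1 was lower in siYAP+TAZ than in siControl, where 9.97% of all genes tested were higher and 8.39% lower. GSN alone also reached an absolute log2 fold change of 1, which together with the adjusted p was met by 3.46% of all genes. The median log2 fold change of the 6 members was 0.53, and that of all genes was -0.0048. GSN, whose rise was known when the family was chosen, is included in both the count and the median. Of the other members, SVIL and CAPG were higher, FLII was lower, and AVIL and SCIN did not pass.

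GSN (ENSG00000148180.22, chr9:121207794-121332843, plus strand, GRCh38) had 1433, 1597 and 1753 normalized counts in the siControl libraries 17, 22 and 27. In the siYAP+TAZ libraries 20, 25 and 30 it had 4373, 4536 and 5603. Every siYAP+TAZ library stood above every library of the other 4 groups. Between siYAP+TAZ and siControl alone, 36.4% of all genes had no overlap in either direction. The share of genes above all 4 groups was not counted. The log2 fold change was 1.60 ± 0.12 (SE, n = 3 per group, adjusted p = 2.0e-07 by edgeR), or 3.04-fold. A normalized count is a count divided by the relative library size after trimmed-mean (TMM) scaling. The untransfected Control libraries 16, 21 and 26, at 1678, 1521 and 1600, overlapped siControl.

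SVIL (ENSG00000197321.16, chr10:29457338-29736959, minus strand) had 3161, 3158 and 2781 normalized counts in siControl and 4278, 4933 and 5172 in siYAP+TAZ. The groups did not overlap, and the log2 fold change was 0.66 ± 0.076 (SE, n = 3 per group, adjusted p = 1.1e-05 by edgeR), or 1.58-fold. An antisense gene, SVIL-AS1, overlaps 7.95% of the exonic length of SVIL, and whether counting used strand is not given in the sources used here. Of the 50-base stretches of SVIL transcripts, 3.89% also occur in other genes. Both shares were smaller for GSN, at 2.52% and 0.12%.

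CAPG (ENSG00000042493.16, chr2:85394753-85418432, minus strand) moved in the same direction by a smaller amount. It had 4451, 4173 and 5467 normalized counts in siControl and 5831, 5870 and 6942 in siYAP+TAZ. The lowest siYAP+TAZ library stood just above the highest siControl library. The log2 fold change was 0.40 ± 0.11 (SE, n = 3 per group, adjusted p = 0.012 by edgeR), and the call was lost when siControl 17, siControl 22 or siYAP+TAZ 30 was left out (adjusted p up to 0.075).

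FLII (ENSG00000177731.16, chr17:18244815-18258738, minus strand), the member with the highest normalized counts, fell. It had 17448, 17848 and 21159 normalized counts in siControl and 12897, 13445 and 13828 in siYAP+TAZ. All 3 siYAP+TAZ libraries were below all 3 siControl libraries. The log2 fold change was -0.49 ± 0.081 (SE, n = 3 per group, adjusted p = 0.00034 by edgeR), or 0.71-fold. An exon of LLGL1 on the other strand overlaps 0.97% of the exonic length of FLII, and no 50-base stretch of FLII or CAPG occurs in another gene.

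AVIL (ENSG00000135407.11, chr12:57797376-57818734, minus strand) had 8 to 31 counts in any library, and SCIN (ENSG00000006747.15, chr7:12570577-12660182, plus strand) 1 to 19. Their siYAP+TAZ and siControl libraries overlapped. The 95% interval of the log2 fold change was -0.49 to 1.03 for AVIL and -0.54 to 2.03 for SCIN, so a change of the size seen in SVIL was not detectable in either gene at this depth.

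**Figure D1:**
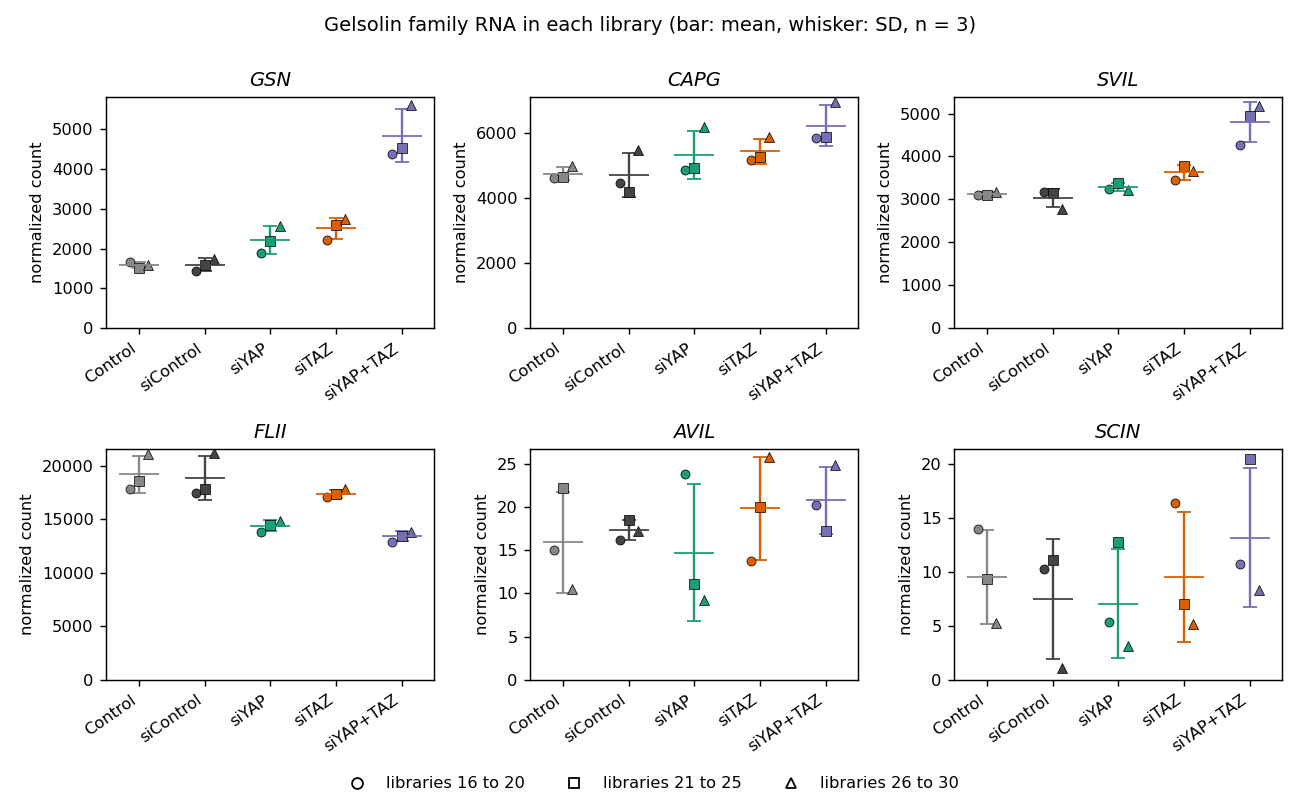
Normalized counts (vertical axes, linear from 0) of the 6 measured members in the 5 groups, with 1 point per library, its shape giving the run of consecutive library numbers, a bar for the mean and a whisker for the SD of 3 libraries. The siYAP+TAZ points of GSN, from 4373 to 5603, lie above all other GSN points, those of SVIL and CAPG lie above siControl, those of FLII, from 12897 to 13828, lie below all Control, siControl and siTAZ points, and AVIL and SCIN scatter below 30 normalized counts.

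Relative to each other, the members also changed. Within a library, the log2 ratio of GSN to FLII was -3.56 ± 0.068 (SD, n = 3) in siControl and -1.48 ± 0.15 in siYAP+TAZ, a difference of 2.08. The ratio of GSN to CAPG rose by 1.19 and that of GSN to SVIL by 0.94 on the log2 scale, and the ratio to AVIL by 1.35. Each of these 4 ratios was higher in all 3 siYAP+TAZ libraries than in all 3 siControl libraries. A two-sided exact permutation test gave p = 0.1 for each, the smallest value that 3 libraries against 3 allow, and 0.125 after Benjamini-Hochberg adjustment over the 5 ratios. For SCIN the difference was 0.47 (exact permutation p = 0.8), and it ranged from -0.050 without siControl 17 to 1.48 without siControl 27, the library with a single SCIN count. In the edgeR fit, the 95% interval of the GSN log2 fold change, 1.35 to 1.85, lay above the upper limits of CAPG (0.63), SVIL (0.82) and AVIL (1.03).

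Levels were compared between members per kilobase of exonic length, which counts every annotated exon of a gene. Which transcripts were expressed was not measured, so the order between members depends on this length. In siControl the order was FLII (2983 ± 323 normalized counts per kb, SD, n = 3), CAPG (1942 ± 282), SVIL (242 ± 17.4), GSN (144 ± 14.5), AVIL (2.92 ± 0.20) and SCIN (0.64 ± 0.48). Neighbours in this order were separated in every siControl library. In siYAP+TAZ, CAPG stood at 2569 ± 261 and FLII at 2123 ± 74.2, and GSN at 437 ± 60.4 and SVIL at 382 ± 36.9 per kb. Per kb, the order of each pair was thus exchanged in the means and in each of the 3 libraries. The ranges of GSN and SVIL overlapped. Without division by length, FLII stayed above CAPG in every siYAP+TAZ library. In library 25, SVIL then also stayed above GSN, at 4933 against 4536 normalized counts.

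Of the summed family level per kb, GSN made up 2.72% ± 0.17 in siControl and 7.91% ± 0.48 in siYAP+TAZ (SD, n = 3). FLII made up 56.1% ± 0.87 and 38.6% ± 1.7, and CAPG 36.5% ± 1.5 and 46.5% ± 1.4. The summed level itself was 5315 ± 592 in siControl and 5516 ± 416 in siYAP+TAZ, a difference smaller than the SD of either group. Thus, with these lengths, the composition of the family RNA differed while its sum stayed within the spread between libraries. The shares and the sum weight each member by its annotated exonic length, and other lengths would change them.

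In the fit without a block, FLII was the single member that passed after knockdown of YAP alone, and GSN after knockdown of TAZ alone. FLII had 13814.5, 14479 and 14824 normalized counts in siYAP libraries 18, 23 and 28, all below the siControl libraries, in a comparison in which 19.5% of all genes had no overlap. Its log2 fold change was -0.39 ± 0.081 (SE, n = 3 per group, adjusted p = 0.025 by edgeR), and 0.933% of all genes passed. This call was lost when any 1 of the 6 siControl and siYAP libraries was left out (17, 22, 27, 18, 23 or 28), with log2 fold changes between -0.43 and -0.30 and an adjusted p of up to 0.14. In siTAZ, FLII had 17050, 17311 and 17783, overlapping siControl, and a log2 fold change of -0.11 (95% interval -0.28 to 0.055). The direct comparison of siYAP with siTAZ gave -0.27 for FLII and did not pass (adjusted p = 0.13, or 0.0047 with a block for the run of library numbers, 16 to 20, 21 to 25 or 26 to 30), and 0.642% of all genes passed there, or 7.32% with the block. Under the same block, 6.1% of all genes passed in siYAP and 10.3% in siTAZ against siControl, 14.6% and 14.8% in siYAP+TAZ against siYAP and siTAZ, and 0.647% for the interaction. Its siYAP and siTAZ libraries did not overlap, which held for 17.6% of all genes.

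GSN had 2220, 2598 and 2735 normalized counts in siTAZ libraries 19, 24 and 29 and 1895, 2192 and 2582 in siYAP. Both sets lay above siControl and below siYAP+TAZ, and they overlapped each other. Of all genes, 20.9% had no overlap between siTAZ and siControl. In siTAZ the log2 fold change was 0.66 ± 0.12 (SE, n = 3 per group, adjusted p = 0.0087 by edgeR), where 2.03% of all genes passed. Leaving out siControl 17 or siTAZ 24 ended this call (adjusted p up to 0.064). In siYAP it was 0.48 ± 0.12 (adjusted p = 0.062). There GSN passed with DESeq2 (adjusted p = 0.014), with library size as the only scaling (0.026), without siYAP 18 (0.044) and with the run as a block (0.00014). The share of all genes that passed in siYAP was 2.12% with DESeq2, 1.1% with library size only and 0.336% without siYAP 18. The difference between siYAP and siTAZ was -0.18 (95% interval -0.43 to 0.066).

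For SVIL, siTAZ gave 3441, 3772 and 3668 normalized counts and siYAP 3246, 3392 and 3222. All of these exceeded the siControl values of SVIL. The log2 fold change was 0.26 ± 0.076 in siTAZ (adjusted p = 0.085 by edgeR) and 0.12 ± 0.076 in siYAP (adjusted p = 0.61), so neither passed. In siTAZ SVIL passed with DESeq2 (adjusted p = 0.034), as did 4.25% of all genes, and with the run as a block (0.011). CAPG overlapped siControl in both single knockdowns, with log2 fold changes of 0.18 (95% interval -0.045 to 0.40) in siYAP and 0.21 (-0.016 to 0.43) in siTAZ, where it passed with the run as a block (adjusted p = 0.019). AVIL and SCIN passed in neither.

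**Figure D2:**
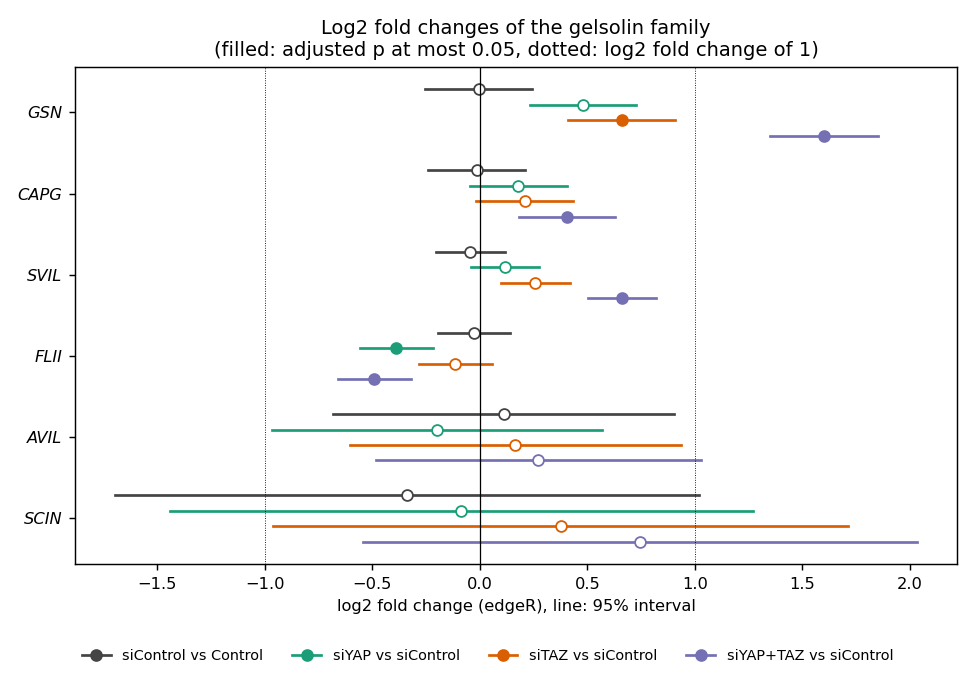
Log2 fold changes (horizontal axis) of the 6 measured members in siControl against Control and in each knockdown against siControl, with 95% intervals as lines, filled points for an adjusted p of at most 0.05 and dotted lines at a log2 fold change of 1 in either direction. GSN moves from 0.48 in siYAP and 0.66 in siTAZ to 1.60 in siYAP+TAZ, FLII lies at -0.39 in siYAP, -0.11 in siTAZ and -0.49 in siYAP+TAZ, and the intervals of AVIL and SCIN span 0 throughout.

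The double knockdown was then compared with each single knockdown. Depletion of the targets was unequal, since WWTR1 RNA was 2.19-fold as high in siYAP+TAZ as in siTAZ, with no overlap between the groups (adjusted p = 0.065 by edgeR), and the part of this in these differences was not tested. Against siYAP, GSN was higher by 1.12 ± 0.12 and SVIL by 0.54 ± 0.076 on the log2 scale (SE, n = 3 per group, adjusted p = 4.6e-05 and 0.00033 by edgeR), and 5.13% of all genes passed. FLII differed by -0.10 (95% interval -0.27 to 0.067) and CAPG by 0.23 (adjusted p = 0.26, or 0.0089 with the run as a block), and neither passed without the block. Against siTAZ, GSN was higher by 0.94 ± 0.12 and SVIL by 0.40 ± 0.076 (adjusted p = 0.00021 and 0.0045), and FLII was lower, at -0.38 ± 0.081 (adjusted p = 0.010). In that comparison 5.44% of all genes passed, and CAPG at 0.20 did not (adjusted p = 0.34, or 0.028 with the run as a block). The call of FLII was lost without siYAP+TAZ 20 (adjusted p = 0.059). Against siYAP, GSN met both the adjusted p and an absolute log2 fold change of 1, as did 0.742% of all genes, but its log2 fold change fell to 0.998 without siYAP+TAZ 30. Against siTAZ 0.78% of all genes met both thresholds and no member did.

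Whether the double knockdown exceeded the sum of the single knockdowns was tested as an interaction on the log2 scale. The interaction of WWTR1 itself was 1.14 ± 0.43 (SE, adjusted p = 0.76 by edgeR), with WWTR1 less depleted in siYAP+TAZ than in siTAZ in every library. Without a block no member passed, and 0.0106% of all genes did. For GSN the interaction was 0.46 ± 0.16 (SE, adjusted p = 0.70 by edgeR) and for SVIL 0.29 ± 0.11 (adjusted p = 0.72). With the run of library numbers as a block, GSN passed at 0.47 (adjusted p = 0.025 by edgeR) and SVIL did not (adjusted p = 0.17). Without the block, their 95% intervals were 0.12 to 0.81 and 0.063 to 0.51. For CAPG and FLII the interval spanned 0, from -0.30 to 0.33 and from -0.23 to 0.25.

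Transfection itself was examined by comparing siControl with Control. No member passed, with log2 fold changes of -0.0058 for GSN, -0.015 for CAPG, -0.045 for SVIL and -0.027 for FLII. The widest 95% interval of these 4 was that of GSN, from -0.26 to 0.24. No gene in the table (0%) passed by edgeR without a block or by DESeq2. Of 18858 genes, 398 had an unadjusted p under 0.05 by edgeR, a share below the 0.05 expected without any effect. With the run of library numbers as a block, 1 gene passed, which was no member.

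The library numbers form 3 runs, 16 to 20, 21 to 25 and 26 to 30, each with 1 library of every group. The study describes 3 independent sets of experiments that covered every condition, but which libraries form a set is not given in the sources used here, so ratios to the siControl library of the same run are given as values. For GSN in siYAP+TAZ they were 1.61, 1.51 and 1.68 on the log2 scale, for siTAZ 0.63, 0.70 and 0.64, and for siYAP 0.40, 0.46 and 0.56. All 3 runs gave GSN the order siYAP, siTAZ, siYAP+TAZ. SVIL varied more in siYAP+TAZ, at 0.44, 0.64 and 0.90, whereas CAPG gave 0.39, 0.49 and 0.34. FLII gave -0.44, -0.41 and -0.61 in siYAP+TAZ and -0.34, -0.30 and -0.51 in siYAP, but -0.033, -0.044 and -0.25 in siTAZ.

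**Figure D3:**
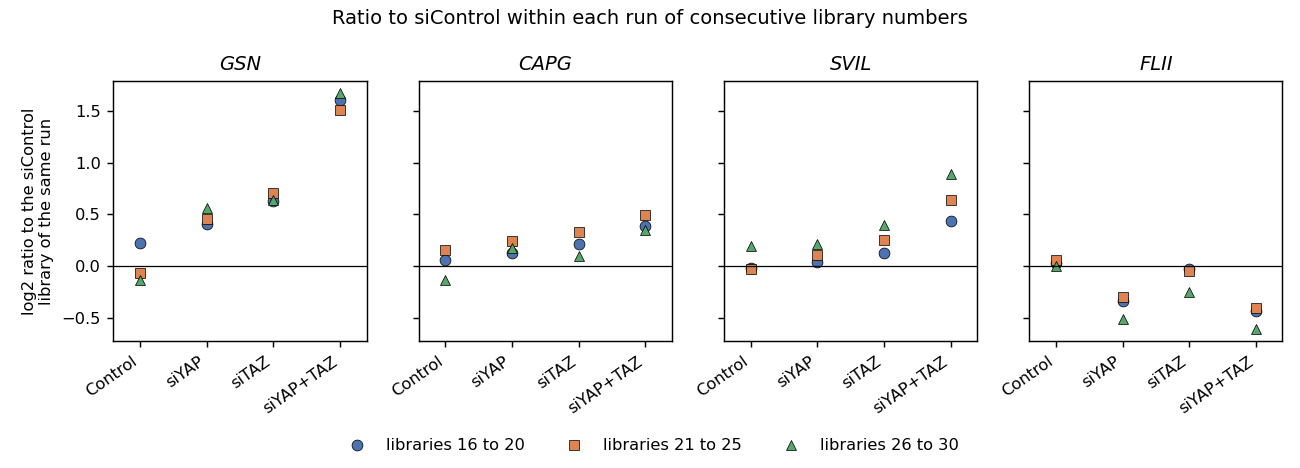
Log2 ratio of the normalized count to the siControl library of the same run (vertical axis) for GSN, CAPG, SVIL and FLII, with 1 point per library and the runs told apart by shape and colour. GSN in siYAP+TAZ lies at 1.51 to 1.68 in the 3 runs, and FLII in siYAP+TAZ lies at -0.61 to -0.41.

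Over all 15 libraries, the Pearson correlation of log2 CPM with GSN was 0.94 for SVIL, 0.85 for CAPG and -0.72 for FLII. CPM are counts scaled to library size after TMM. SVIL ranked 71 among the 10639 genes whose normalized counts averaged 100 or more. The libraries fall into the 5 groups, so these values largely restate the group means. After subtracting the group means, r was 0.80 for CAPG, 0.22 for SVIL and 0.53 for FLII. With the mean of each run of library numbers subtracted as well, r was 0.49, 0.16 and -0.46, so the positive value for FLII did not hold within runs. The 5 genes most like GSN over the libraries were GBP2, an interferon-induced GTPase (r = 0.99), DDR1, a collagen receptor tyrosine kinase (0.98), IQSEC2, an exchange factor for ARF GTPases (0.98), ANGPTL2, a secreted angiopoietin-like protein (0.98), and ETV1, an ETS transcription factor (0.98). In siYAP+TAZ against siControl their log2 fold changes were 1.87 for GBP2, 1.24 for DDR1, 1.98 for IQSEC2, 1.65 for ANGPTL2 and 1.80 for ETV1, beside 1.60 for GSN.

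The family was set beside 64 other genes of actin turnover, of which 59 were measured. In siYAP+TAZ against siControl, 7 were higher, 3 were lower and 49 did not pass, and none met both the adjusted p and an absolute log2 fold change of 1. The share that passed, 16.9%, was near the 18.4% of all genes, and the median log2 fold change was 0.085. Of the 19 filament severing and disassembly genes, CORO2B, a coronin, rose by 0.75 ± 0.12 (log2, SE) and DSTN (destrin), which depolymerizes filaments, by 0.31 ± 0.084. CORO1C, another coronin, fell, at -0.32 ± 0.070. None of the 13 measured genes of barbed-end capping passed, although CAPG, which shares that activity, did. Of the 6 measured pointed-end genes none passed either, and LMOD1, LMOD3 and TMOD1 had at most 8 counts in any siControl or siYAP+TAZ library.

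Cofilin, which severs filaments as gelsolin does, is switched off by LIM kinases and on by slingshot phosphatases. Of the 8 genes in this group SSH3 rose by 0.65 ± 0.10 (log2, SE) and SSH1 by 0.47 ± 0.11, and LIMK2 fell, at -0.31 ± 0.092. CFL1, the main cofilin gene, gave 0.10 (adjusted p = 0.63 by edgeR). Among the 5 measured phosphoinositide kinases, which make the lipids that inhibit gelsolin and CAPG, PIP4K2A rose by 0.61 ± 0.077, PIP5K1C by 0.37 ± 0.11 and PIP4K2B by 0.22 ± 0.067. PIP5K1A fell, at -0.43 ± 0.069. PIP5K1A had 3428 to 3758 normalized counts in siControl and 2631 to 2739 in siYAP+TAZ, with no overlap. It was also lower in siYAP (-0.46, adjusted p = 0.0041 by edgeR) and passed in all 14 alternatives there. In siTAZ it stood at -0.27 (adjusted p = 0.049), and CORO2B at 0.56 in siYAP and 0.48 in siTAZ (adjusted p = 0.034 and 0.0496). These 3 calls held in 6, 8 and 8 of the 14 alternatives, in that order. The 2 genes made up 3.39% of the list in each single knockdown, against 0.933% of all genes in siYAP and 2.03% in siTAZ. VILL had at most 9 counts in any library and gave -0.35 in siYAP+TAZ (95% interval -2.21 to 1.52).

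**Figure D4:**
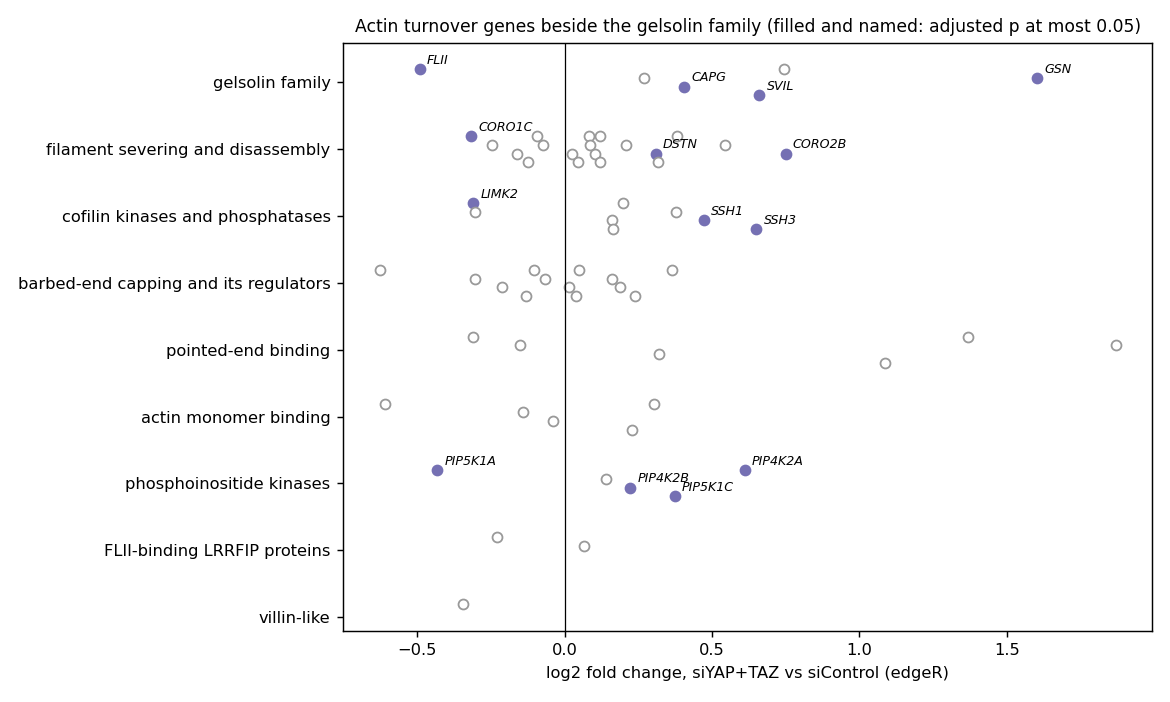
Log2 fold change in siYAP+TAZ against siControl (horizontal axis) for the gelsolin family and 59 other actin turnover genes, grouped by function, with 1 point per gene and filled, named points for an adjusted p of at most 0.05. GSN at 1.60 lies to the right of all other filled points, the next being CORO2B at 0.75 and SVIL at 0.66, and the open points beyond a log2 fold change of 1 are TMOD1, LMOD1 and LMOD3, with at most 8 counts in these libraries.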

How the data were processed

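Poly(A)-selected RNA of 15 MDA-MB-231 libraries was sequenced. The authors trimmed reads, mapped them with STAR v2.4.2a to GRCh38 and counted them per gene, keeping genes with at least 5 reads in any library. The deposited table holds raw counts, a normalized signal (counts over DESeq2 size factors), regularized log2 values, and the authors' own comparisons as mean values, log2 fold changes, p-values and pass marks. Raw counts were used here, and the authors' comparisons were not.

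Counts were fitted with edgeR 4.0.16 (TMM, robust quasi-likelihood, 1 coefficient per group, all 15 libraries) in R 4.3.3. Adjustment was over all 18858 genes, and a gene passed at an adjusted p of at most 0.05. Exonic lengths and coordinates are from GENCODE 44 on GRCh38. Ratios used a pseudocount of 0.5. Alternatives included DESeq2 1.42.0, other scalings and filters, and leaving out each library. The study describes the libraries as 3 independent sets of experiments, without naming the set of each library. In bulk RNA, fewer cells of a kind and less RNA per cell cannot be told apart. The members and gene lists were chosen with earlier results of these data known, including the rise of GSN. Named list genes are all that passed in siYAP+TAZ against siControl (at most 8 in each direction), and named likeness genes are the 5 with the highest r to GSN.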

Additional observations from a re-analysis of the deposited data

Results flagged for a closer look

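5 values stand out because the double knockdown differed from a single knockdown of the same design by the edgeR test of that difference (adjusted p of at most 0.05). GSN was higher in siYAP+TAZ than in siYAP by 1.12 and than in siTAZ by 0.94 on the log2 scale. SVIL was higher by 0.54 and 0.40 in the same comparisons, in which 5.13% and 5.44% of all genes passed. The interaction passed for no member without a block and for GSN with the run as a block. FLII differed from siTAZ only, with a log2 fold change of -0.38 in siYAP+TAZ against siTAZ, a call that was lost without siYAP+TAZ 20. With 3 libraries per group, single libraries were not tested for standing apart.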

How the results depend on the processing

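In siYAP+TAZ against siControl, GSN, SVIL and FLII kept their direction and passed under all 14 alternatives, GSN with log2 fold changes of 1.49 to 1.68, SVIL with 0.60 to 0.74 and FLII with -0.54 to -0.40. CAPG stayed higher, at 0.32 to 0.53, and lost its call in 3 of the 14. The single knockdowns depended more on the processing. In siYAP, where 1 member passed, 2 passed with DESeq2, with library size as the only scaling and with the run of library numbers as a replicate block (GSN joining FLII, adjusted p = 0.00014 under the block), 0 when only the compared groups were fitted, and 0 to 1 when a library was left out. Of all genes, 0.933% passed there, and 2.12% with DESeq2, 1.1% with library size only and 6.1% under the block. In siTAZ, where 1 passed, 2 passed with DESeq2 (SVIL joining GSN), 3 under the block (SVIL and CAPG joining, adjusted p = 0.011 and 0.019), and 0 to 1 when a library was left out, while the share of all genes rose from 2.03% to 4.25% with DESeq2 and 10.3% under the block. Under the block, FLII also passed in siYAP against siTAZ (1 member instead of 0, adjusted p = 0.0047), the interaction of GSN passed (1 member instead of 0, 0.47, adjusted p = 0.025), and CAPG passed against siYAP and siTAZ (adjusted p = 0.0089 and 0.028). The study describes 3 independent sets of experiments over all conditions, which fits the number of runs, but the sources used here do not assign libraries to sets, so that a run is a set was inferred from the library numbers. Deviations from the group means correlated with a median r of 0.47 (-0.066 to 0.72) in 30 pairs of the same run and of -0.40 (-0.66 to 0.53) in 60 pairs of different runs, a hint from the data and not from the design. Both thresholds together were met by 0 to 1 members against siYAP and against siTAZ when a library was left out. The GSN to SCIN ratio changed sign, at -0.050 without siControl 17 and -0.030 without siControl 22, and reached 1.48 without siControl 27. Values near 0 in siControl against Control also changed sign when a library was left out, over -0.079 to 0.061 for GSN, -0.14 to 0.063 for CAPG, -0.081 to 0.014 for SVIL and -0.12 to 0.047 for FLII. The cause of these changes was not tested.

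Over all genes, the count at an adjusted p of at most 0.05 was 3464 in siYAP+TAZ against siControl and 2503 to 5389 over the alternatives. It was 176 (27 to 1151) for siYAP, 383 (68 to 1942) for siTAZ, 968 (412 to 2758) against siYAP, 1025 (471 to 2795) against siTAZ, 121 (0 to 1380) for siYAP against siTAZ, 0 (0 to 1) for siControl against Control and 2 (0 to 122) for the interaction, with the highest count under the block in each. With both thresholds the ranges were 533 to 831 around 652, 5 to 72 around 18, 4 to 152 around 40, 83 to 261 around 140, 78 to 276 around 147, 0 to 54 around 12, 0 in each for siControl against Control, and 0 to 27 around 1, in the same order. For AVIL and SCIN, at 1 to 31 counts, depth limits what can be seen.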
